A study of Mus musculus with 23 samples.

Results

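The comparison set Trim33-null against wild-type (WT) mouse embryoid bodies (EBs) while the Nodal and activin receptors were inhibited with SB431542, and its members are the genes expressed there. A gene was kept if at least 2 of the 4 libraries held it at 1 FPKM or more (fragments normalised to transcript length and to the size of the library), which left 10902 of 29032 gene symbols, or 37.6%. Of the 18130 left out, 4269 are listed at 0 in all 4 libraries. By its second-highest value, Wrn was just inside at 1.0002 FPKM and Mfsd12 just outside at 0.999739 FPKM. EBs are the aggregates that embryonic stem cells (ESCs) form in suspension. The Trim33-null and the WT ESCs are both labelled as having a C57Bl/6J background, both were aggregated for 2.5 days in 15% serum without leukaemia inhibitory factor, and both then received SB431542. The dose is given as 10 μM in the sample characteristics and as 10 mM in the protocol, and the duration as 2 h in the titles and as 1 h in the protocol. Each genotype has 2 libraries, which the table calls I and II. The same Trim33-null and WT cells were also sequenced after activin A at 50 ng/ml for 2 h, again with 2 libraries each, and these served to measure the spread and as a second setting of the same genotype contrast. Activin-treated E14 ESCs, 2 libraries of another line, serve once as a scale; their characteristics and table columns call them wild type, while their titles carry the tag LKO, which the labels do not explain. Nothing in the labels says how the null allele was made, whether the ESC lines were single clones or whether a group's libraries were separate cultures.

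TRIM33 is a member of the TIF1 family of chromatin proteins. Its PHD finger and bromodomain read modified histone H3 tails, and it binds SMAD proteins that Nodal or activin receptors have phosphorylated, so it has mostly been studied as a partner of an active pathway. SB431542 blocks the kinase of the type I receptors for activin, Nodal and TGF-beta, which removes that input. The contrast therefore asks what differs without Trim33 once the receptors have been shut off for 1 or 2 h. Differences that arose in the 2.5 days before SB431542 enter it too. ESCs in EBs leave the naive state, pass through a formative state marked by Otx2 and Fgf5, and then form the germ layers.

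Trim33 itself checked the genotype. It had 2.38 and 2.83 FPKM in the Trim33-null libraries, against 11 and 11.1 FPKM in the WT libraries. The Trim33-null libraries lay far below the WT libraries but not at 0, with a log2 difference of -1.74 ± 0.10, adjusted p = 0.00228. All log2 differences are Trim33-null minus WT on log2(FPKM + 1), a scale on which changes of weakly expressed genes look too small, and are given ± SE. Adjusted p-values are from limma over all 10902 genes, with a threshold of 0.05. Of the other TIF1 genes, Trim24 rose slightly, to 11.6 and 11.9 FPKM in Trim33-null, against 9.53 and 9.23 FPKM in WT (0.30 ± 0.06, adjusted p = 0.0432), and Trim28, the co-repressor that silences retroelements, stood at 200.2 and 157 FPKM in Trim33-null and 202 and 191 FPKM in WT and did not pass (adjusted p = 0.528). Of the 3 members tested, 1 was higher and 1, Trim33, was lower, with a median of -0.15.

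The libraries had similar sums, from 247272 to 248168 FPKM in Trim33-null and from 236760 to 241786 FPKM in WT, and 10564 to 10846 symbols reached 1 FPKM in each. Symbols listed at 0 numbered 5877 and 5810 in Trim33-null and 6486 and 7194 in WT. The 2 Trim33-null libraries resembled each other less than the 2 WT libraries did. Their Pearson correlation across genes was 0.984, against 0.996 for WT, and 119 genes differed by at least 1 log2 between Trim33-null I and II, 93 of them higher in II, against 18 genes between WT I and II. All 6 markers of pluripotent cells were expressed in every library, among them Pou5f1 at 185 and 161 FPKM in Trim33-null and 199 and 189 FPKM in WT. Of 7 fibroblast markers, summed, the level was 11.7 and 32.8 FPKM in Trim33-null I and II, against 6.85 and 10.3 FPKM in WT I and II, and none was at 0 in all 4 libraries. The 4 markers of primed epiblast summed to 164 and 103 FPKM in Trim33-null, against 257 and 265 FPKM in WT, and 3 neural markers to 7.08 and 11.1 FPKM in Trim33-null, against 9.90 and 10.1 FPKM in WT. The 7 extraembryonic endoderm markers summed to 2.83 and 2.84 FPKM in Trim33-null and to 1.92 and 1.85 FPKM in WT, and the 5 trophoblast markers to 1.77 and 1.46 FPKM in Trim33-null, against 1.56 and 1.46 FPKM in WT. In bulk libraries, fewer cells of a type and less RNA per cell cannot be told apart.

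Under SB431542, 964 of the 10902 genes (8.84%) passed the test, 482 of them higher in Trim33-null (4.42%) and 482 lower (4.42%). The large differences were mostly increases: 190 of the genes that passed differed by at least 1 log2, of which 165 were higher and 25 were lower. Of the 165, 86 carry the name of a predicted locus, as do 1088 of the 10902 genes tested. Some of the 86, such as Gm4340 and Gm8764, are near-identical copies. The median log2 difference of all genes was -0.02, with 45.4% above 0. The groups did not overlap in any of the 964 genes, as they did not in 61.5% of all genes tested. Of all genes, 225 entered the test through both Trim33-null libraries and neither WT library, which required them to be higher in Trim33-null, and 110 of these passed; 168 entered through WT alone, and 57 of these passed. The test draws its spread from 8 EB libraries, 4 of them treated with activin. It counts all of them as independent. Libraries of the same numeral, I or II, deviated together across the treatments, however (correlation across genes 0.907 in Trim33-null and 0.461 in WT). The adjusted p-values of this test may therefore be too small, and its count too high. Fitted to the 4 SB431542 libraries alone, 279 genes passed (2.56%), 191 higher and 88 lower, and 271 of these were among the 964.

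The count rested on every library of the contrast. It was 665 without Trim33-null I, 214 without Trim33-null II, 80 without WT I and 5 without WT II, where the lone library of a genotype is assumed to vary like the other groups. The genes that passed without WT II were Dnmt3l, Eif2s3y, Uty, Eps8 and C130073F10Rik. Without either WT activin library it was 513. Of the 97 genes picked out by the naming rule, 91 of which passed, none changed sign under any of 20 other settings. In the fit to the 4 SB431542 libraries, 54 of the 97 no longer passed. In all 97 the libraries of the genotypes did not overlap, so leaving out a library could not change the sign. The constant sign is therefore little support for these differences.

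**Figure D1:**
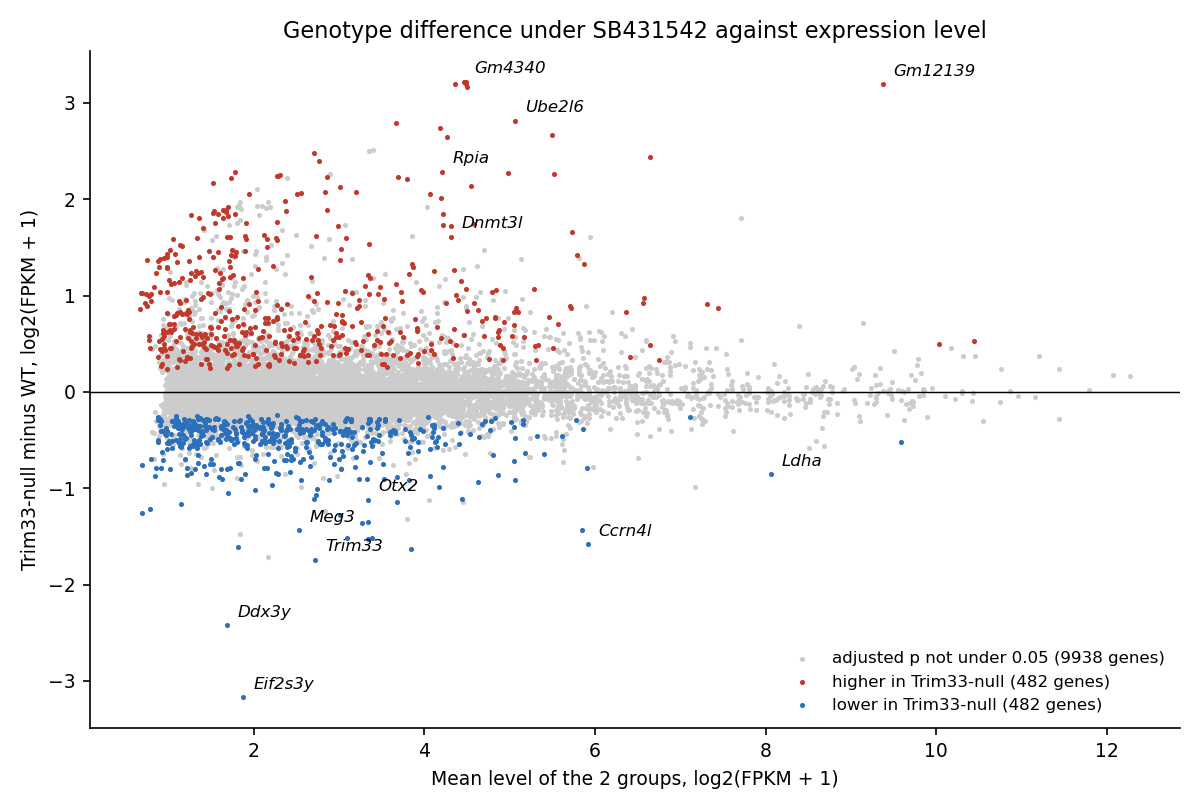
Mean level of each of the 10902 genes (x axis, mean of both groups, log2(FPKM + 1)) against its difference, Trim33-null minus WT under SB431542 (y axis, log2(FPKM + 1)). Red points are the 482 genes higher in Trim33-null and blue points the 482 lower (limma adjusted p under 0.05); the red points reach beyond 3 on the log2 scale, while below -2 only Eif2s3y and Ddx3y are found.

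Among the ligands and extracellular regulators of Nodal, the 2 Lefty genes rose. Their products are secreted inhibitors of Nodal and are textbook feedback targets of the pathway. Lefty1 had 36.2 and 29.8 FPKM in the Trim33-null libraries, against 8.63 and 9.73 FPKM in the WT libraries, a difference of 1.74 ± 0.11, adjusted p = 0.00319. Lefty2 had 25.6 and 18.4 FPKM in the Trim33-null libraries, against 7.48 and 9.07 FPKM in the WT libraries, a difference of 1.30 ± 0.17, adjusted p = 0.0115. The lowest Trim33-null value of each gene was above its highest WT value. Lefty1 passed with any library but WT II left out (adjusted p = 0.0509 without WT II), and Lefty2 did not pass without WT I or without WT II (adjusted p = 0.0863 and 0.0715).

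The ligand and its co-receptor did not pass. Nodal stood at 26.8 and 19.8 FPKM in Trim33-null and 26.1 and 18.4 FPKM in WT (adjusted p = 0.842), and the libraries of the genotypes overlapped. Tdgf1, which encodes the Nodal co-receptor Cripto, stood at 151 and 129 FPKM in Trim33-null and 153 and 153 FPKM in WT. Gdf3, a related ligand, stood at 28.4 and 18.4 FPKM in Trim33-null and 12.4 and 11.5 FPKM in WT and missed the threshold (log2 difference 0.89 ± 0.22, adjusted p = 0.0581). Fst, which encodes the activin antagonist follistatin, stood at 20.8 and 7.93 FPKM in Trim33-null and 36.8 and 24 FPKM in WT and did not pass (adjusted p = 0.18). Of the 10 genes tested in this list of 16, 2 rose and 0 fell, with a median of 0.07, while 8.84% of all genes passed.

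Of 16 receptor, SMAD and co-regulator genes, 3 fell, 0 rose and 13 did not pass. Their median was -0.16, and 8.84% of all genes passed. Acvr2b, a type II receptor for activin and Nodal, fell to 2.19 and 1.95 FPKM in Trim33-null, against 3.55 and 3.46 FPKM in WT (-0.56 ± 0.11, adjusted p = 0.0312). Foxh1, the DNA-binding partner of SMADs at Nodal targets, stood at 31.9 and 29.8 FPKM in Trim33-null and 39.8 and 38.5 FPKM in WT (-0.33 ± 0.07, adjusted p = 0.034). Tgif1, a repressor that binds SMADs, stood at 12.6 and 12.9 FPKM in Trim33-null and 16.3 and 18.2 FPKM in WT (-0.41 ± 0.08, adjusted p = 0.0284). These are small differences with little spread inside each genotype. The signal-transducing Smad2 stood at 5.26 and 5.25 FPKM in Trim33-null and 4.7 and 4.43 FPKM in WT and Smad4 at 8.16 and 9.67 FPKM in Trim33-null and 9.2 and 9.87 FPKM in WT, and neither passed.

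Of 15 Nodal and activin targets tested, 8 lay above 0, with a median of 0.07. While 8.84% of all genes passed, 4 of the 15 rose and 0 fell. Besides the Lefty genes these were Epha2, an ephrin receptor gene, at 6.61 and 7.68 FPKM in Trim33-null and 5.14 and 4.06 FPKM in WT (0.54 ± 0.12, adjusted p = 0.0438), and the Wnt receptor gene Fzd10, at 2.27 and 2.05 FPKM in Trim33-null and 1.46 and 1.18 FPKM in WT (0.45 ± 0.10, adjusted p = 0.0465). Smad7, an inhibitory SMAD induced by the pathway, was low in all 4 libraries, at 1.43 and 1.81 FPKM in Trim33-null and 1.35 and 1.32 FPKM in WT. Gsc and Mixl1 stayed under 0.4 FPKM in each library and were not tested.

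Genes of the primitive streak, where mesendoderm forms, were low. While 8.84% of all genes passed, 0 of the 6 tested of 16 did (median -0.72). Eomes, a T-box factor of early mesendoderm, stood at 2.03 and 0.896 FPKM in Trim33-null and 9.36 and 4.97 FPKM in WT. The groups did not overlap, but library I was well above library II in both genotypes, and Eomes missed the threshold (log2 difference -1.72 ± 0.44, adjusted p = 0.0625). Fgf8 stood at 1.91 and 0.461 FPKM in Trim33-null and 6.4 and 3.44 FPKM in WT and T, or brachyury, at 3.68 and 1.42 FPKM in Trim33-null and 4.56 and 1.6 FPKM in WT. T was higher in library I than in II in both genotypes.

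Of the 12 mesoderm genes 2 were expressed, and both rose (median 1.01). Dll1, a Notch ligand gene, had 3.62 and 3.45 FPKM in the Trim33-null libraries, against 0.759 and 1.01 FPKM in the WT libraries (1.27 ± 0.13, adjusted p = 0.00767), and Snai1, a repressor of epithelial genes, had 2.95 and 3.8 FPKM in Trim33-null and 1.73 and 1.44 FPKM in WT (0.75 ± 0.13, adjusted p = 0.0219). Of 4 definitive endoderm genes and 5 extraembryonic endoderm genes 0 passed. The endoderm factor gene Hhex stood at 1.93 and 2.2 FPKM in Trim33-null and 1.38 and 1.49 FPKM in WT (adjusted p = 0.0979) and Apoe, expressed in visceral endoderm, at 175 and 149.7 FPKM in Trim33-null and 111 and 124 FPKM in WT (adjusted p = 0.0519). Their medians were 0.05 and 0.49.

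Of 24 naive pluripotency genes tested, 9 rose in Trim33-null EBs, 0 fell and 15 did not pass. A difference above 0 was found in 23 of them, with a median of 0.68 against -0.02 for all genes. In each direction 4.42% of all genes passed. The largest increase was in Tex19.1, a gene of ESCs and the germ line that restrains retrotransposons, with 29.3 and 41.5 FPKM in the Trim33-null libraries, against 9.49 and 10.3 FPKM in the WT libraries (1.72 ± 0.19, adjusted p = 0.00937). Tbx3, a T-box factor that sustains self-renewal, was below 1 FPKM in both WT libraries, at 0.589 and 0.651, and reached 2.69 and 3.04 FPKM in the Trim33-null libraries (1.25 ± 0.09, adjusted p = 0.0035). Zfp42, or Rex1, the classical naive marker, had 14.6 and 12.5 FPKM in the Trim33-null libraries, against 5.77 and 5.78 FPKM in the WT libraries (1.10 ± 0.14, adjusted p = 0.0115). In each of these genes both Trim33-null values were clear of the WT values, and the gap between the Trim33-null libraries was widest in Tex19.1. The filter kept 3 of the 24 naive genes through their Trim33-null values alone, so these had to be higher there. Tbx3 was the only 1 of the 3 that passed.

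The other naive genes that rose did so by 0.65 to 1.05 on the log2 scale. Nr0b1, which encodes the nuclear receptor Dax1, had 11.1 and 11.1 FPKM in Trim33-null and 4.57 and 5.1 FPKM in WT. Esrrb, an orphan nuclear receptor of the naive network, had 11.9 and 12.2 FPKM in Trim33-null and 5.57 and 5.91 FPKM in WT, and Fbxo15 had 14.1 and 12.8 FPKM in Trim33-null and 5.5 and 6.84 FPKM in WT. Tdh, the threonine dehydrogenase on which mouse ESCs depend, had 46.6 and 39.9 FPKM in Trim33-null and 26.2 and 21.7 FPKM in WT. Klf5 had 5.16 and 6.37 FPKM in Trim33-null and 3.37 and 3.23 FPKM in WT, and Zfp57, which protects imprinted methylation, had 8.97 and 10.2 FPKM in Trim33-null and 5.19 and 5.53 FPKM in WT. Klf4, another member of the factor network, stood at 2.95 and 6.13 FPKM in Trim33-null and 1.36 and 1.6 FPKM in WT and missed the threshold (adjusted p = 0.0575), with Trim33-null II far above Trim33-null I.

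The activin-treated E14 ESCs, with their unexplained LKO tag, give the scale for these genes. Of the 24, 22 lay above WT and below the ESC mean in Trim33-null EBs, 1 above both and 1 below WT. Zfp42 averaged 13.5 FPKM in Trim33-null EBs, 5.77 FPKM in WT EBs and 195 FPKM in the ESCs, so the increase was small beside the level of the ESCs. Tex19.1 averaged 35.4 FPKM in Trim33-null EBs, 9.88 FPKM in WT EBs and 44.6 FPKM in the ESCs. Under activin, which the ESCs also received, Zfp42 averaged 13.6 FPKM in Trim33-null EBs and 5.86 FPKM in WT EBs, and Tex19.1 30.4 FPKM in Trim33-null EBs and 9.56 FPKM in WT EBs. Cell line and state differ together between EBs and ESCs and cannot be told apart.

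The upstream sequence of Tex19.1 is shown because this gene, whose silencing in somatic cells goes with DNA methylation of its promoter, gave the largest naive increase. It is the 250 bases before the gene's start from RefSeq (GRCm38.p6, chr11:121145893-121146142, plus strand), with CG dinucleotides, the sites of DNA methylation, in capitals.
Tex19.1: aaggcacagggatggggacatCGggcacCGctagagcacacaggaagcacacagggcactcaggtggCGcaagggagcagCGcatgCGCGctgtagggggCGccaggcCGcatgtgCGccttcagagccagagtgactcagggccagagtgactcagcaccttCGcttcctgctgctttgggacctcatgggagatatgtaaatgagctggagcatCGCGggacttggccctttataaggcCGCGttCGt
It holds 15 CG, searched as the letters CG, which read the same on both strands; 27.3% of 32851 promoter windows of the same length hold at least as many, and their median is 6. Methylation was not measured in these libraries.

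Among DNA methylation genes, Dnmt3l rose more than 3-fold. It encodes the catalytically inactive cofactor of the de novo methyltransferases and is high in naive ESCs. Dnmt3l had 34.9 and 32.7 FPKM in the Trim33-null libraries, against 10.5 and 10.3 FPKM in the WT libraries, a difference of 1.61 ± 0.06, adjusted p = 0.000712. The libraries of each genotype lay close together, and Dnmt3l passed whichever 1 of the 4 libraries was left out. Dnmt3b, the methyltransferase of the epiblast, went the other way without passing, at 126 and 78.9 FPKM in Trim33-null and 201 and 198 FPKM in WT (log2 difference -0.99 ± 0.26, adjusted p = 0.0656). Tet3, a demethylating dioxygenase gene, fell to 0.826 and 0.904 FPKM, against 1.25 and 1.35 FPKM in WT (-0.30 ± 0.06, adjusted p = 0.0305). The filter kept Tet3 through its WT values alone, so Tet3 had to be lower in Trim33-null. Of the 10 genes tested, 2 rose and 1 fell, with a median of 0.02, and Dnmt1 and Uhrf1, which maintain methylation, did not pass.

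Of 15 general pluripotency genes, 2 rose and 0 fell, with a median of -0.06, while 4.42% of all genes passed in each direction. The 2 were the neighbours Dppa2 and Dppa4, whose products bind chromatin together at bivalent promoters. Dppa2 had 33.8 and 28.5 FPKM in the Trim33-null libraries, against 13.2 and 13.7 FPKM in the WT libraries (1.15 ± 0.11, adjusted p = 0.00749), and Dppa4 had 40.0 and 32.9 FPKM in Trim33-null and 19.7 and 21.8 FPKM in WT (0.78 ± 0.13, adjusted p = 0.0192). Nanog stood at 54 and 44.9 FPKM in Trim33-null and 45.6 and 41.2 FPKM in WT and Sox2 at 56.2 and 55 FPKM in Trim33-null and 49 and 47.6 FPKM in WT. Lin28a stood at 93 and 51.7 FPKM in Trim33-null and 112 and 112 FPKM in WT and did not pass, the Trim33-null libraries being further from each other than I was from WT.

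**Figure D2:**
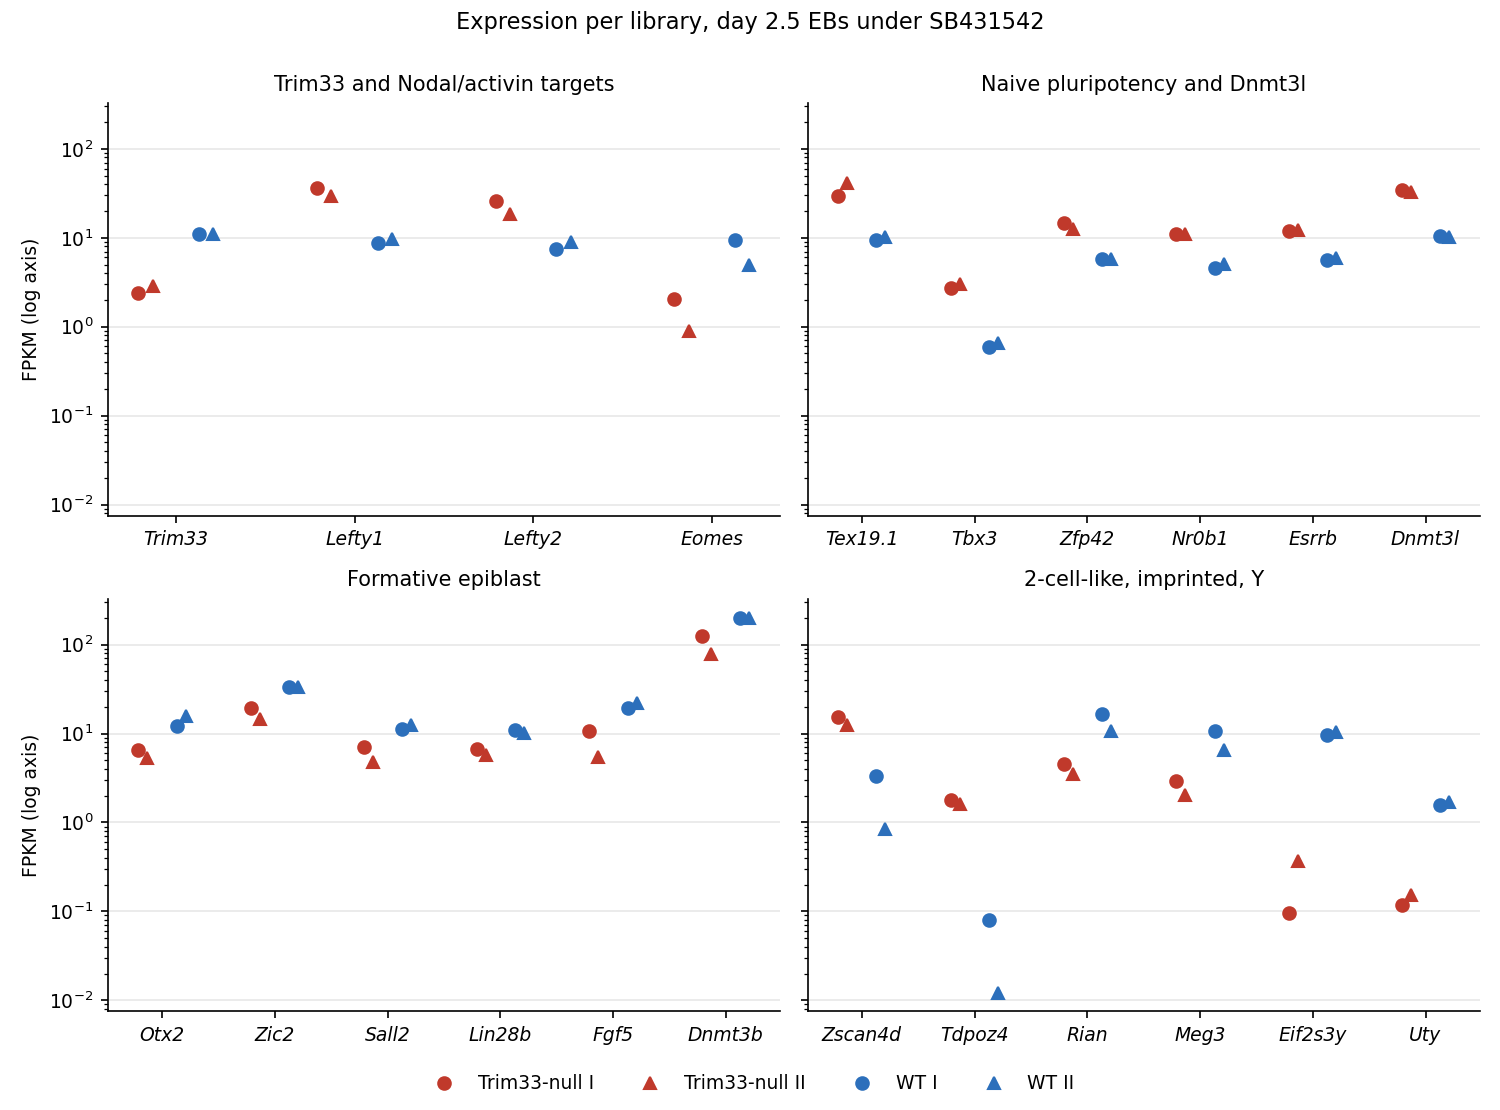
FPKM per library (log axis) of genes of 4 groups in day 2.5 EBs under SB431542, Trim33-null in red at the left of each gene and WT in blue at the right, circles for library I and triangles for library II. The Trim33-null and WT symbols do not overlap for any gene shown; Eomes, Fgf5 and Dnmt3b did not pass the test.

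Of 20 genes of the formative and primed epiblast, 7 fell in Trim33-null EBs, 1 rose and 12 did not pass. Their median was -0.65, and 4.42% of all genes passed in each direction. Otx2, the homeobox factor that drives exit from the naive state, had 6.48 and 5.24 FPKM in the Trim33-null libraries, against 12.3 and 15.6 FPKM in the WT libraries (-1.12 ± 0.20, adjusted p = 0.0253). Zic2, a zinc finger factor of the epiblast and neural plate, had 19.4 and 14.5 FPKM in Trim33-null and 33 and 33.1 FPKM in WT (-0.94 ± 0.19, adjusted p = 0.034). Its relative Zic5 had 7.31 and 6.71 FPKM in Trim33-null and 11.8 and 12.8 FPKM in WT (-0.73 ± 0.10, adjusted p = 0.0128). In all 3 genes each Trim33-null library lay below each WT library.

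The other 4 that fell were Sall2 (log2 difference -0.91), the let-7 inhibitor gene Lin28b (-0.68), the Hippo pathway factor gene Tead2 (-0.66) and Sox4 (-0.65). Sox4 had 2.61 and 2.57 FPKM in Trim33-null, against 4.51 and 4.74 FPKM in WT. In the limma fit to 4 libraries, Sox4 and Zic5 passed too (adjusted p = 0.0371 and 0.0414). Otx2, Zic2, Sall2, Lin28b and Tead2 did not pass in that fit (adjusted p from 0.0505 to 0.0990). The gene that rose was Tcf15, a basic helix-loop-helix factor of cells poised to leave the naive state, with 10.4 and 13.6 FPKM in the Trim33-null libraries, against 3.53 and 4.47 FPKM in the WT libraries (1.37 ± 0.17, adjusted p = 0.0106). Fgf5, the usual formative marker, stood at 10.6 and 5.44 FPKM in Trim33-null and 19.3 and 21.9 FPKM in WT and missed the threshold (log2 difference -1.32 ± 0.35, adjusted p = 0.0673). In Fgf5, Fst, Lin28a and Dnmt3b, Trim33-null II was the lowest of the 4 libraries and Trim33-null I lay between it and WT.

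Of 10 neuroectoderm genes, 5 fell, 1 rose and 4 did not pass, with a median of -0.46, while 8.84% of all genes passed. Otx2, Zic2 and Zic5 are on this list also. Sox3, a factor of neural progenitors and the epiblast, had 8.4 and 6.86 FPKM in Trim33-null and 10.4 and 11.2 FPKM in WT (-0.46 ± 0.10, adjusted p = 0.0436). Sox11, of early neurons, had 7.02 and 6.13 FPKM in Trim33-null and 10.3 and 8.62 FPKM in WT (-0.47 ± 0.11, adjusted p = 0.0488). Olig2, a basic helix-loop-helix factor of motor neuron and oligodendrocyte precursors, rose to 5.39 and 5.91 FPKM, against 3.81 and 3.86 FPKM in WT (0.46 ± 0.08, adjusted p = 0.0281). The neural markers Sox1 and Pax6 were under 0.5 FPKM in all 4 libraries.

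A small share of ESCs enters a 2-cell-like state, which resembles the embryo when its genome is activated. Of 13 genes of this state tested from a list of 21, 9 rose, 0 fell and 4 did not pass, while 8.84% of all genes passed. All 13 lay above 0 with a median of 1.37. Of the 9, 7 were kept by the filter through their Trim33-null values alone, so they had to be higher there. Zscan4d, of the family that lengthens telomeres in ESCs, had 15.4 and 12.5 FPKM in the Trim33-null libraries, against 3.33 and 0.842 FPKM in the WT libraries (2.4 ± 0.56, adjusted p = 0.0496). Its near-identical copy Zscan4c had 24.4 and 19.2 FPKM in Trim33-null and 5.71 and 1.38 FPKM in WT and missed the threshold (adjusted p = 0.0652), as did Zscan4f at 25.5 and 20 FPKM in Trim33-null and 5.87 and 1.48 FPKM in WT (adjusted p = 0.0633). In each, WT I was several times as high as WT II, so the spread within WT was wide.

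Tdpoz4, Tcstv1 and Tcstv3 were under 0.3 FPKM in WT. Tdpoz4, a BTB-domain gene, had 1.8 and 1.62 FPKM in the Trim33-null libraries, against 0.0805 and 0.0122 FPKM in the WT libraries (1.37 ± 0.08, adjusted p = 0.00228). Tcstv1 had 2.1 and 1.72 FPKM in Trim33-null and 0.227 and 0.141 FPKM in WT (1.29 ± 0.10, adjusted p = 0.00462) and Tcstv3 had 2.62 and 1.46 FPKM in Trim33-null and 0.183 and 0.107 FPKM in WT (1.38 ± 0.19, adjusted p = 0.0127). The deubiquitinase genes Usp17la, Usp17lc and Usp17ld rose by 0.83, 1.16 and 0.99 on the log2 scale, BC080695 by 2.06 and Gm8300 by 1.17. The Usp17l, Zscan4 and Tcstv genes have close copies, so how reads were shared between members is uncertain.

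The largest increases of the contrast lay in a row of copies on chromosome 10. Gm4340, Gm8764, Gm20765, Gm21304, Gm6763 and Gm21312 follow each other in RefSeq's order and rose by 3.17 to 3.22 log2. Gm4340 had 64.5 and 54.3 FPKM in the Trim33-null libraries, against 11.9 and 2.23 FPKM in the WT libraries (3.22 ± 0.74, adjusted p = 0.0485), and Gm8764 had 65.1 and 55.1 FPKM in Trim33-null and 12.1 and 2.28 FPKM in WT. The values of the copies are almost the same in every library, and as in the Zscan4 genes WT I was several times WT II. None of the 6 passed in the fit to 4 libraries (adjusted p = 0.0884 for Gm4340).

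The upstream sequences of 2 copies are shown because they are all but identical. They are the 250 bases before each start from RefSeq (GRCm38.p6, plus strand), Gm4340 at chr10:104193792-104194041 and Gm8764 at chr10:104159756-104160005. Capitals mark the base at which they differ, C1G counted from the 5′ end of the window (Gm4340's base, position, Gm8764's base).
Gm4340: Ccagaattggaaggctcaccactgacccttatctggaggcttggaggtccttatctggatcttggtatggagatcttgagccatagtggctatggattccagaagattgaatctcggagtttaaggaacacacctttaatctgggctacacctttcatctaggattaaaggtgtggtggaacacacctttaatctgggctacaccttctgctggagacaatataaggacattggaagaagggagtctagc
Gm8764: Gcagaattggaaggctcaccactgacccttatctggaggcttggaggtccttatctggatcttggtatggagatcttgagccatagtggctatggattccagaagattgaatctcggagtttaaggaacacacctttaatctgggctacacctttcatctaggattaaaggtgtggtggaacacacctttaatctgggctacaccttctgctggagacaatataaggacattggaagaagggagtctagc
Of the 6 copies, 5 matched the promoter table, and their windows comprise 2 distinct sequences that differ at 1 of 250 bases. How reads were shared among such copies is not known, so each copy's value is uncertain and the 6 increases are not 6 independent measurements.

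The 12 largest increases picked by the naming rule also held other loci. Gm12139, a noncoding transcript whose current name is Platr13 (pluripotency-associated transcript), had 1422 and 2678 FPKM in the Trim33-null libraries, against 227 and 199 FPKM in the WT libraries, the highest level among the increases named (3.19 ± 0.45, adjusted p = 0.0135). Ube2l6, the conjugating enzyme gene for the ubiquitin-like protein ISG15, had 65.4 and 113 FPKM in the Trim33-null libraries, against 11.1 and 11.7 FPKM in the WT libraries (2.82 ± 0.40, adjusted p = 0.0135). Tcte2, a testis-expressed gene of the t-complex, had 30.6 and 64.6 FPKM in Trim33-null and 6.05 and 5.63 FPKM in WT (2.74 ± 0.49, adjusted p = 0.0258). In these 3 genes Trim33-null II stood well above Trim33-null I, and both stood several-fold above WT. The predicted loci Gm15721, Gm17167 and Gm20404 rose by 2.80, 2.67 and 2.65.

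Of 13 interferon-type genes tested, Ube2l6 rose and 1 fell, with a median of 0.01, while 8.84% of all genes passed. Oasl2, an antiviral gene, fell to 0.667 and 0.566 FPKM, against 1.31 and 1.58 FPKM in WT (-0.60 ± 0.10, adjusted p = 0.0191). The filter kept Oasl2 through its WT values alone, so Oasl2 had to be lower in Trim33-null. Irf1, which encodes an interferon regulatory factor, stood at 1.45 and 1.43 FPKM in Trim33-null and 2.22 and 2.34 FPKM in WT (adjusted p = 0.0696).

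The largest decreases began with Y-linked genes. Eif2s3y, the Y copy of a translation initiation factor gene, had 0.0971 and 0.369 FPKM in the Trim33-null libraries, against 9.52 and 10.5 FPKM in the WT libraries (-3.17 ± 0.14, adjusted p = 0.000712). Ddx3y, an RNA helicase gene, had 0.188 and 0.614 FPKM in Trim33-null and 5.97 and 6.91 FPKM in WT (-2.42 ± 0.18, adjusted p = 0.00462), and Uty, a histone demethylase homologue, 0.117 and 0.152 FPKM in Trim33-null and 1.57 and 1.69 FPKM in WT (-1.21 ± 0.06, adjusted p = 0.00111). The 4 Y-linked genes tested were kept by the filter through their WT values alone, so they had to be lower in Trim33-null, and all 4 passed. Kdm5d, which was not tested, stood at 0.0178 and 0.0285 FPKM in Trim33-null and 0.726 and 0.828 FPKM in WT. The X copy Eif2s3x did not pass, at 67.7 and 86.6 FPKM in Trim33-null and 65.3 and 66.1 FPKM in WT, nor did Ddx3x, at 116 and 101 FPKM in Trim33-null and 104 and 102 FPKM in WT, and Xist was under 0.5 FPKM in each library. Of the 7 sex chromosome markers tested 0 rose and 3 fell, with a median of 0.06. The Trim33-null EBs had little Y-linked transcript besides little Trim33 transcript, and effects of Trim33 and of other differences between the lines cannot be told apart in this design.

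All 3 genes tested of the imprinted Dlk1-Dio3 domain on chromosome 12, which are noncoding RNAs transcribed from the maternal copy, fell. Rian had 4.59 and 3.47 FPKM in the Trim33-null libraries, against 16.6 and 10.7 FPKM in the WT libraries (-1.52 ± 0.26, adjusted p = 0.0233). Meg3, the transcript at the start of the cluster, had 2.95 and 2.01 FPKM in Trim33-null and 10.6 and 6.5 FPKM in WT (-1.44 ± 0.26, adjusted p = 0.0272), and Mirg, a microRNA host, 0.873 and 0.583 FPKM in Trim33-null and 2.62 and 1.71 FPKM in WT (-0.86 ± 0.18, adjusted p = 0.0377). The filter kept Mirg through its WT values alone, so Mirg had to be lower in Trim33-null. In all 3, library I exceeded library II in both genotypes while the genotypes stayed apart, and none passed in the fit to 4 libraries (adjusted p = 0.0587, 0.0706 and 0.0824). The paternally expressed Dlk1, Rtl1 and Dio3 reached 1 FPKM in at most 1 library and were not tested.

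Of 18 other imprinted genes, 1 rose, 1 fell and 16 did not pass, with a median of 0.28, while 8.84% of all genes passed. Peg10, a retrotransposon-derived gene needed for the placenta, had 32 and 31.8 FPKM in the Trim33-null libraries, against 17.8 and 14.9 FPKM in the WT libraries (0.93 ± 0.17, adjusted p = 0.0273). Gnas fell by a small amount, at 1.02 and 1.13 FPKM in Trim33-null and 1.56 and 1.47 FPKM in WT (-0.28 ± 0.06, adjusted p = 0.0418). Grb10 and Phlda2 varied so much between libraries that no difference could be called: Grb10 stood at 12.7 and 1.96 FPKM in Trim33-null and 5.52 and 11.9 FPKM in WT, and Phlda2 at 41.9 and 24.3 FPKM in Trim33-null and 9.68 and 16.4 FPKM in WT.

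The other largest decreases were in genes on none of the lists. Ccrn4l, now Noct, which encodes the clock-controlled phosphatase nocturnin, had 27.7 and 40.9 FPKM in the Trim33-null libraries, against 116 and 90.7 FPKM in the WT libraries (-1.58 ± 0.29, adjusted p = 0.0282). Slc38a6, an amino acid transporter gene, had 28.9 and 39.6 FPKM in Trim33-null and 104 and 83.4 FPKM in WT (-1.43 ± 0.24, adjusted p = 0.0222). The flavin monooxygenase gene Fmo1 fell by 1.53, the endocytosis gene Sgip1 by 1.52, the carbonic anhydrase gene Car14 by 1.61, the metalloprotease gene Adamts13 by 1.36 and the predicted locus Gm27000 by 1.63. In Ccrn4l, Slc38a6, Fmo1, Sgip1 and Adamts13, Trim33-null I was below Trim33-null II and WT I above WT II.

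Genes of sugar metabolism changed in both directions. Of 26 glycolysis and pentose phosphate genes, 2 rose, 3 fell and 21 did not pass. Their median was -0.22, and 8.84% of all genes passed. Rpia, the ribose phosphate isomerase of the pentose phosphate pathway, had 36.2 and 42.6 FPKM in the Trim33-null libraries, against 9.62 and 5.41 FPKM in the WT libraries (2.29 ± 0.29, adjusted p = 0.0115), and Rpe, the epimerase next to it in the pathway, had 12.9 and 12 FPKM in Trim33-null and 8.85 and 9.63 FPKM in WT (0.39 ± 0.07, adjusted p = 0.0222). Transketolase, Tkt, which uses their products, fell to 29.5 and 27 FPKM, against 36.1 and 37.1 FPKM in WT (-0.36 ± 0.08, adjusted p = 0.0464). Ldha, which makes lactate, had 214 and 183 FPKM in the Trim33-null libraries, against 346 and 372 FPKM in the WT libraries (-0.86 ± 0.17, adjusted p = 0.0338), and the lactate exporter gene Slc16a3 had 15.2 and 12.4 FPKM in Trim33-null and 31.4 and 30.4 FPKM in WT (-1.11 ± 0.21, adjusted p = 0.0282). Gapdh, Pgk1 and Hk2 did not pass.

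Of 15 genes of H3K9 methylation and HP1, 1 rose and 1 fell, with a median of -0.12, while 8.84% of all genes passed. Both encode H3K9 methyltransferases and are paralogues. The X-linked Suv39h1 had 11.1 and 8.74 FPKM in Trim33-null and 6.64 and 6.56 FPKM in WT (0.51 ± 0.12, adjusted p = 0.0467), and Suv39h2 had 4.23 and 3.87 FPKM in Trim33-null and 5.9 and 5.62 FPKM in WT (-0.42 ± 0.07, adjusted p = 0.0201). Of 12 histone acetylation genes only the acetyltransferase gene Kat2b passed, at 3.36 and 3.11 FPKM in Trim33-null and 1.94 and 2.01 FPKM in WT (0.51 ± 0.07, adjusted p = 0.0121), with a median of -0.13. Ep300 stood at 4.5 and 4.04 FPKM in Trim33-null and 5.49 and 5.69 FPKM in WT and Crebbp, the other acetyltransferase of enhancers, at 2.55 and 2.37 FPKM in Trim33-null and 2.65 and 2.64 FPKM in WT.

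In the BMP list, 3 of 9 rose and 0 fell, with a median of 0.52, while 8.84% of all genes passed. The filter kept 3 of the 9 through their Trim33-null values alone, which required them to be higher there, and 2 of these, Tbx3 and Bmp4, are among the 3 that rose. The genes that rose were Tbx3, the ligand gene Bmp4, at 1.84 and 1.9 FPKM in Trim33-null and 0.758 and 0.897 FPKM in WT (0.65 ± 0.08, adjusted p = 0.00947), and the decoy receptor gene Bambi, at 1.91 and 1.72 FPKM in Trim33-null and 1.02 and 1.09 FPKM in WT (0.45 ± 0.11, adjusted p = 0.0494). The Id genes, the direct BMP targets, did not pass, with Id1 at 20.8 and 25.3 FPKM in Trim33-null and 17.8 and 14.1 FPKM in WT. Of 10 Wnt targets, Fzd10 rose and Tcf7, a Wnt effector, fell to 17.7 and 15.5 FPKM, against 23.8 and 25.2 FPKM in WT (-0.54 ± 0.10, adjusted p = 0.0305), with a median of -0.11. Of 19 FGF and ERK feedback genes only Dusp4, a MAP kinase phosphatase gene, passed, at 8.52 and 9.55 FPKM in Trim33-null and 6.38 and 6.3 FPKM in WT (0.45 ± 0.08, adjusted p = 0.0232), with a median of 0.05, while 8.84% of all genes passed.

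Among 11 germline genes tested, the filter kept 2 through their Trim33-null values alone, so these had to be higher there, and 0 of the 2 passed. Germline genes rose in 3 of 11 cases and fell in 0, with a median of 0.26, while 8.84% of all genes passed. Besides Tex19.1 these were the X-linked tumour antigen gene Trap1a, with 32.4 and 54.7 FPKM in the Trim33-null libraries, against 12 and 11.8 FPKM in the WT libraries (1.74 ± 0.29, adjusted p = 0.02), and the piRNA pathway gene Mael, at 2.08 and 2.89 FPKM in Trim33-null and 1.2 and 1.38 FPKM in WT (0.60 ± 0.12, adjusted p = 0.0367). Of 8 trophoblast-associated genes, Ascl2, a basic helix-loop-helix factor of the placenta, rose to 1.83 and 2.09 FPKM, against 0.613 and 0.756 FPKM in WT (0.81 ± 0.07, adjusted p = 0.00611), with a list median of 0.59. The filter kept Ascl2 through its Trim33-null values alone, so Ascl2 had to be higher there. Ddx4, the germ cell helicase gene, stood at 4.27 and 4.22 FPKM in Trim33-null and 3.88 and 3.73 FPKM in WT.

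Several genes of fibroblasts, matrix and stress stood apart in Trim33-null II, and 0 of these lists' members passed, against 8.84% of all genes. Of 9 fibroblast genes 0 passed (median 0.77). The filter kept 2 of the 9 through their Trim33-null values alone, so these had to be higher there. Col1a1, the type I collagen gene, stood at 2.97 and 10.3 FPKM in Trim33-null I and II and 1.18 and 1.94 FPKM in WT I and II, and Vim, which encodes vimentin, at 16.8 and 35.8 FPKM in Trim33-null and 10.8 and 11.2 FPKM in WT. Of 17 matrix and integrin genes 0 passed (median 0.40), with Fn1 at 15.9 and 30.5 FPKM in Trim33-null and 11.2 and 13 FPKM in WT (adjusted p = 0.153) and Lama5 at 7.39 and 6.4 FPKM in Trim33-null and 9.01 and 9.1 FPKM in WT (adjusted p = 0.0605). Of 17 p53 targets 0 passed (median 0.31), with Mdm2 at 30.6 and 58.4 FPKM in Trim33-null and 19.6 and 20.4 FPKM in WT and Sesn1 at 2.25 and 1.79 FPKM in Trim33-null and 2.93 and 3.07 FPKM in WT (adjusted p = 0.071). Col1a1, Vim, Fn1 and Mdm2 were highest in Trim33-null II, and Lama5 and Sesn1 were lowest there. The part of the higher fibroblast level of Trim33-null II in the increases above was not tested. The increases named above went both ways between these libraries. Lefty1, Lefty2, Zfp42 and Dnmt3l, for example, were higher in Trim33-null I than in II. Gm12139, Ube2l6, Tcte2, Tex19.1 and Trap1a were higher in Trim33-null II than in I.

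In 14 cadherin and epithelial transition genes (median 0.31) 2 rose, Snai1 and the epithelial factor gene Grhl3, at 1.15 and 1.58 FPKM in Trim33-null and 0.579 and 0.569 FPKM in WT (0.58 ± 0.13, adjusted p = 0.0442), while Cdh1 stood at 62.2 and 68.4 FPKM in Trim33-null and 62.2 and 71.7 FPKM in WT. Grhl3 entered the test through its Trim33-null values alone, so Grhl3 had to be higher there. Of 12 immediate early genes only Ctgf, now Ccn2, a matricellular gene, rose, with 10.7 and 14.7 FPKM in the Trim33-null libraries, against 3.93 and 3.76 FPKM in the WT libraries (1.48 ± 0.16, adjusted p = 0.00937), with a list median of 0.39. Of 30 cell cycle genes 1 rose and 1 fell (median -0.10). Of all genes 8.84% passed, so neither this list nor the immediate early list stood out by its count. Ccnd2, or cyclin D2, had 4.06 and 4.11 FPKM in Trim33-null and 2.51 and 1.89 FPKM in WT (0.68 ± 0.09, adjusted p = 0.0134), and the mitotic kinase gene Aurkb had 13.6 and 11.6 FPKM in Trim33-null and 16.6 and 16.7 FPKM in WT (-0.38 ± 0.09, adjusted p = 0.0465).

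**Figure D3:**
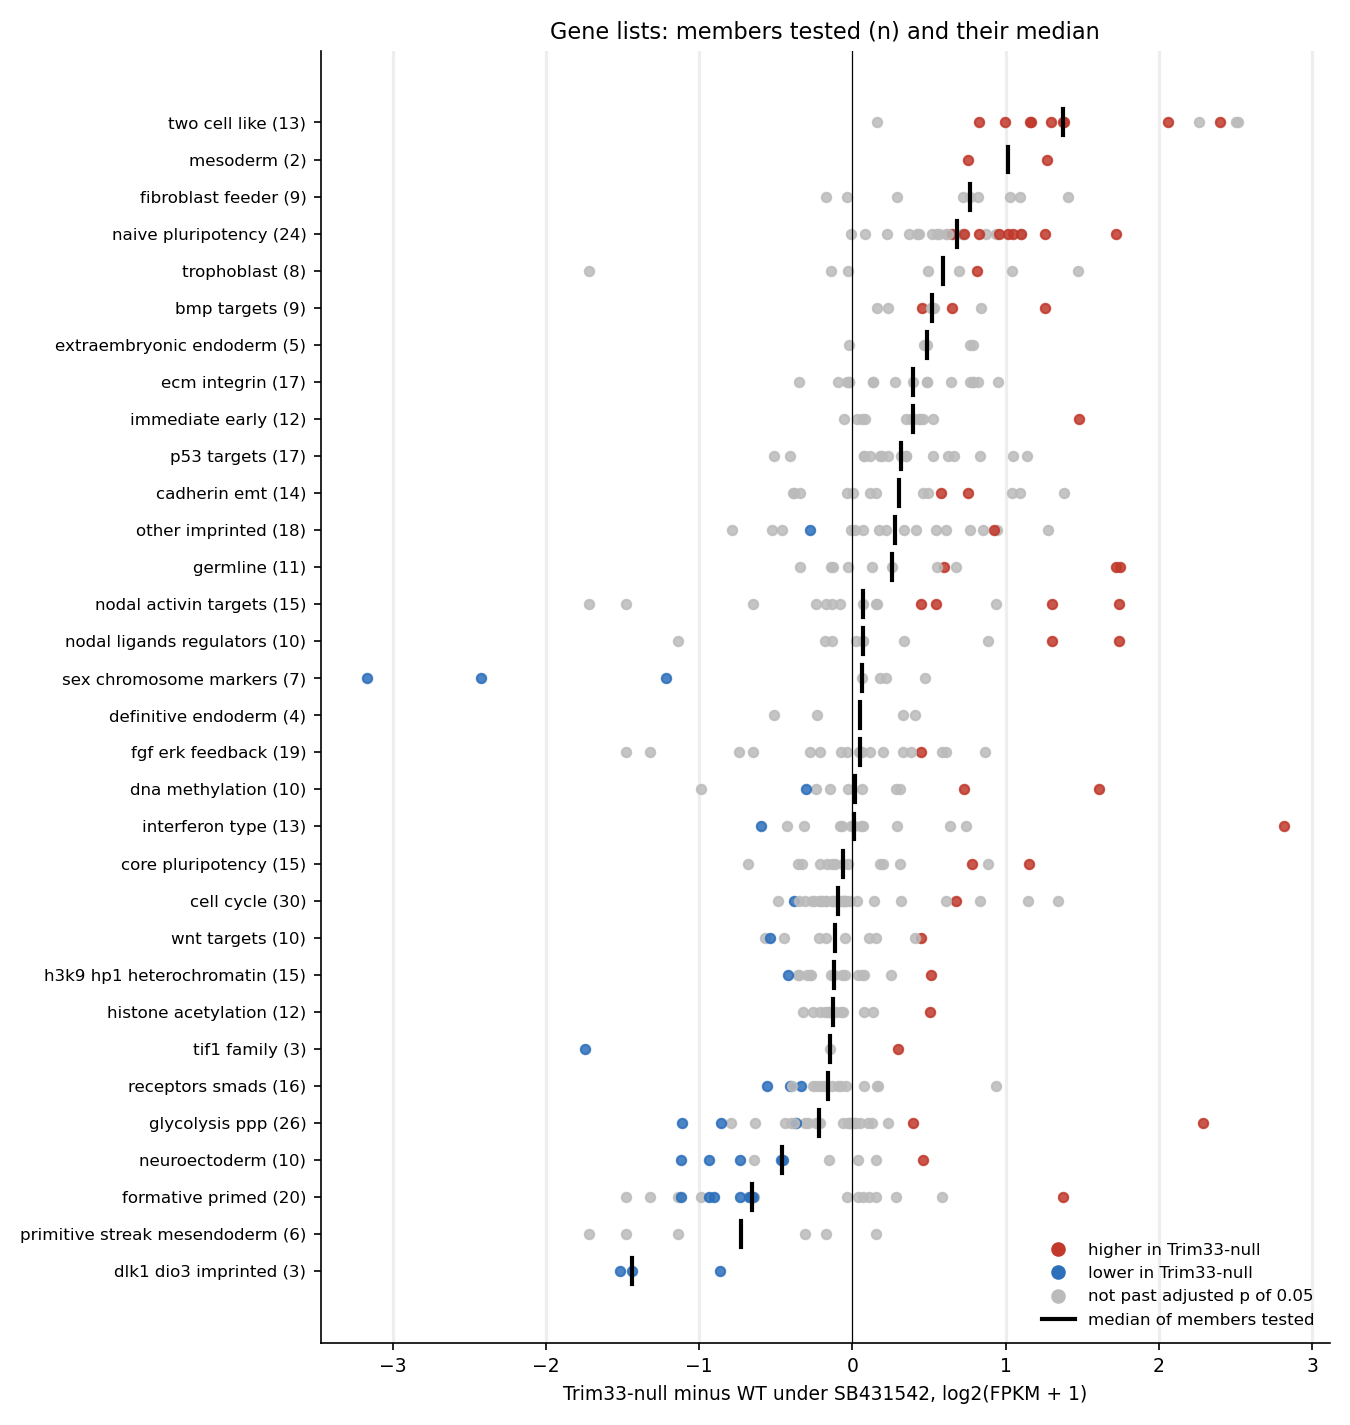
Difference of every tested member of the 32 gene lists, Trim33-null minus WT under SB431542 (x axis, log2(FPKM + 1)), with the number tested in brackets, lists ordered by their median (black bar) and members past adjusted p of 0.05 in red (higher) or blue (lower). The 2-cell-like list has the highest median, 1.37, and the Dlk1-Dio3 list the lowest, -1.44; a gene can be on several lists.

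The same genotype contrast under activin, in libraries that the contrast under SB431542 does not use, gave 952 genes past the threshold (8.73%), 399 higher and 553 lower. All 964 genes called under SB431542 had the same sign under activin, and 951 had at least 0.5 of their SB431542 difference. The 765 genes called in both make up 79.4% of the calls under SB431542 and 80.4% of those under activin. Without WT activin I the count under activin was 12, without WT activin II 41, without Trim33-null activin II 176, without Trim33-null activin I 362 and without either WT SB431542 library 369. The cells are the same lines, libraries of a numeral deviated together across the 2 treatments (correlation across genes 0.907 in Trim33-null and 0.461 in WT), and both contrasts share 1 estimate of the spread, so they are not independent.

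The difference between the 2 genotype effects was itself tested, and 0 of 10902 genes (0%) passed (limma interaction, smallest adjusted p = 0.999988), with 22 at an unadjusted p under 0.05. This fit has no block, so deviations that libraries of a numeral share across treatments enlarge the error of the interaction and make its test conservative. The genotype contrasts within each treatment are not made conservative in this way. Their test counts the libraries as independent, so their adjusted p-values may be too small. A random replicate block within genotype also gave 0 genes. With 2 libraries a group, neither fit shows that the effects are equal. Under activin Lefty1 averaged 408 FPKM in Trim33-null and 179 FPKM in WT, far above its levels under SB431542. It was higher in Trim33-null by 1.74 log2 under SB431542 and by 1.18 under activin, a difference of effects of 0.56 (adjusted p = 1). Tex19.1, Otx2 and Meg3 differed between the genotypes by 1.72, -1.12 and -1.44 under SB431542 and by 1.56, -1.29 and -1.34 under activin. The gap was larger in Gm20404, with 2.65 under SB431542 and 1.84 under activin, which also did not pass (adjusted p = 1).

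**Figure D4:**
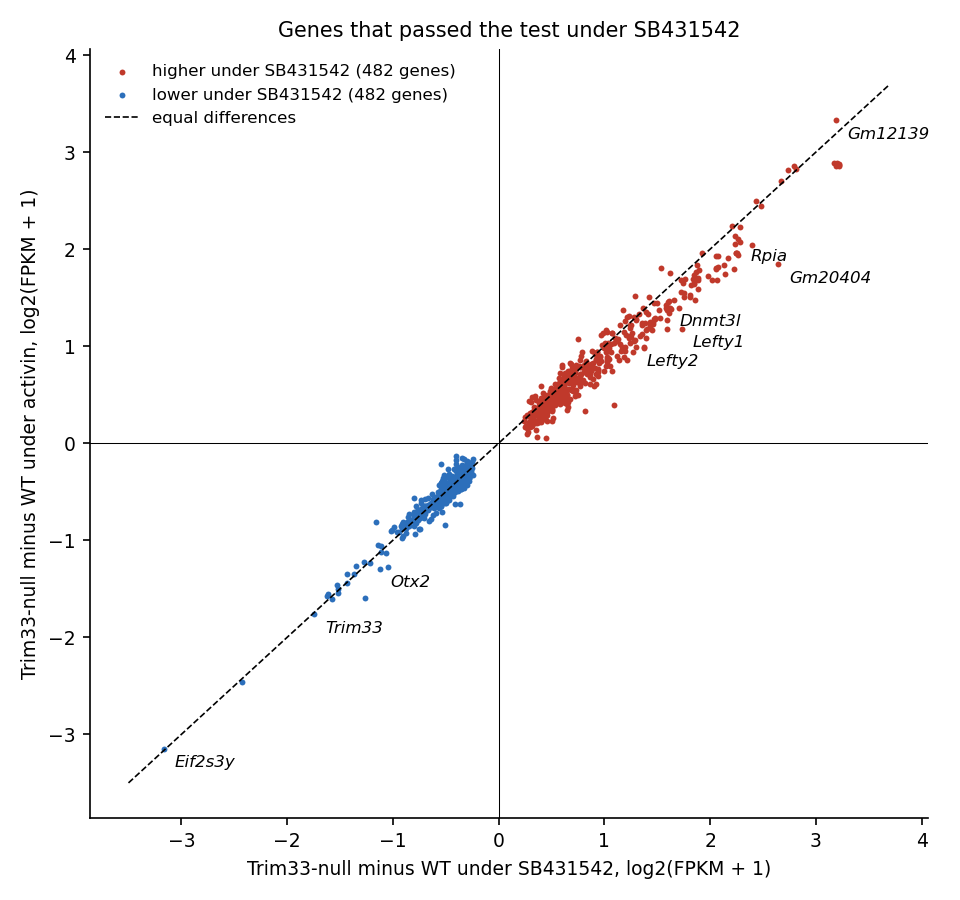
Genotype difference (Trim33-null minus WT, log2(FPKM + 1)) under activin (y axis) against that under SB431542 (x axis) for the 964 genes that passed under SB431542, with a dashed line of equal differences. All points lie in the quadrants of equal sign, and Lefty1, Lefty2 and Gm20404 lie below the line.

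The number of changed genes varied along the chromosomes. By RefSeq's order of genes (GRCm38.p6, 10519 of the 10902 symbols matched), the median difference was 0.17 on X, where 37 of 365 genes rose and 14 fell, and 0.10 on chromosome 6, where 45 of 461 rose and 10 fell. On the other autosomes it lay between -0.09 and 0.05, which hides shorter runs. For example, 20 tested genes of chromosome 5, from Uso1 to Gm7978, had a median of 0.90, with 7 higher and 0 lower. On chromosome 4, 20 tested genes from Gm13057 to Gm13139 had a median of 0.41, with 4 higher and 0 lower. These runs were picked after the values were seen and get no test. The increases on X were concentrated at its start: of the first 60 tested genes, from Nudt11 to Cfp, 58 lay above 0, 26 rose and 0 fell, and their median was 0.49, against 0.11 over the other 305. The median fold of the 60 genes was 1.54.

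On chromosome 6 the last 150 tested genes, from Mkrn2 on, had a median of 0.23, with 122 above 0, 22 higher and 1 lower, against 0.04 over the 311 before them. Both stretches were picked after the values were seen and get no test. Taken singly against the WT mean, Trim33-null I and II had medians of 0.64 and 0.30 in the X stretch and of 0.32 and 0.11 in the chromosome 6 stretch. Under activin the medians were 0.44 and 0.20. Over the rest of X the libraries differed, with -0.04 in Trim33-null I and 0.26 in Trim33-null II. Of the genes named above, Suv39h1 and Ddx3x lie in the X stretch, and Gdf3, Nanog, Gapdh, Ccnd2 and Eps8 in that of chromosome 6. Without both stretches and the Y-linked genes 880 genes passed in place of 964.

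**Figure D5:**
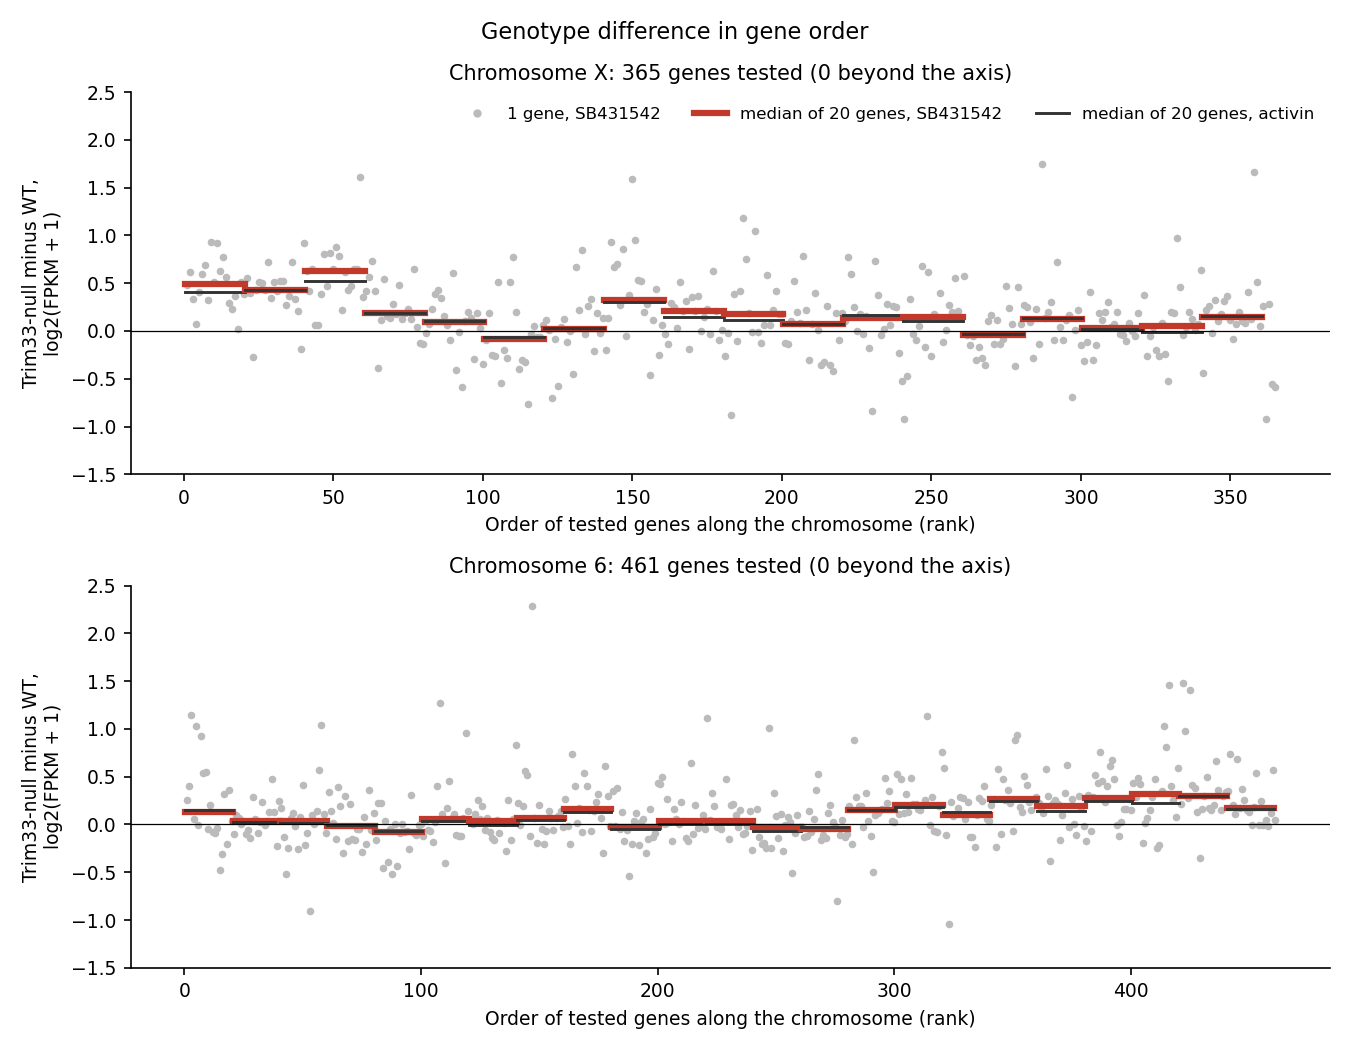
Difference of each gene on X (upper) and chromosome 6 (lower), Trim33-null minus WT under SB431542 (y axis, log2(FPKM + 1)), in the order of tested genes along the chromosome (x axis, rank). Bars are medians of 20 neighbouring genes under SB431542 (red) and activin (black); the first 3 bars on X lie at 0.43 to 0.62 and those of the 9 from rank 281 onward on chromosome 6 at 0.10 to 0.32.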

How the data were processed

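RNA was sequenced from 4 day 2.5 EB libraries under SB431542 and 4 under activin; the 8 ATAC-seq and 5 ChIP-seq samples of the series were not analysed here. The authors deposited FPKM values, made per the submitters' processing notes with tools that include CASAVA 1.8, STAR 2.4.0, Cufflinks 2.2.1 and Bowtie2 2.2.2 on build mm9; which tool made which file is not given in the sources used here. FPKM hides depth, which could not be recovered from the low values, so no count test was run and the counting error is unknown. A symbol listed more than once kept its entry with the highest mean. Groups came from the labels; the null libraries are numbered 1 and 4 in the titles and the WT libraries 1 and 2, which could not be matched to the column numerals I and II, and 0 columns of sample values were left unused.

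Values were taken as log2(FPKM + 1) for the 10902 genes and fitted with limma 3.58.1 (R 4.3.3), with an intensity trend, over the 8 EB libraries with 1 mean per group and no block; the 4 activin libraries add to the estimate of the spread. P-values were Benjamini-Hochberg adjusted over all genes, and the code was tested on simulated data. An exact two-sided permutation test of 2 against 2 libraries cannot go below 0.333. Since no label calls the libraries separate cultures, the p-values reflect only how these libraries vary, which may be technical. The p-values of the genotype contrasts may also be too small, because the fit counts the activin and SB431542 libraries as independent.

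The genes, the 32 lists and the tests were chosen with earlier results of these data known. Genes were named by a rule: Trim33, the 12 largest changes in each direction among those that passed with at least 5 FPKM in the higher group and no overlap, the list members that passed, and the member with the smallest p of a list with none. Other genes were chosen for mention after their values were seen. Lists are described by counts and medians, with no test. Promoter sequences and gene order are from RefSeq (GRCm38.p6), and no coordinates were converted. Alternatives were other filters, pseudocounts and scaling, no trend, the 4 libraries alone, replicate blocks, each library left out and gene subsets.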

Additional observations from a re-analysis of the deposited data

How the results depend on the processing

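The count of 964 genes moved most with the libraries used. Leaving out 1 library at a time gave 5 to 936 genes, with 3 to 481 higher and 2 to 455 lower, and 12 to 965 under activin; a lone library in a group was assumed to vary like the other groups. The share of higher calls, 50% in the main analysis, was 81.2% without WT I, 71.5% without Trim33-null II and 60% without WT II. Fitted to the 4 SB431542 libraries alone, 279 genes passed, 191 higher and 88 lower, a share of 68.5% higher. With a minimum of 5 FPKM, 402 passed, 211 higher and 191 lower, and 427 under activin; the median of the definitive endoderm list was then -0.51 in place of 0.05, because fewer members were tested. The column numerals do not pair the libraries by the labels. A fixed replicate block by numeral gave 2166 genes, 1081 higher and 1085 lower, and 2215 under activin. Of the 6 named genes that did not pass without it, all 6 then passed: Eomes (adjusted p = 0.000314), Hhex, Apoe, Fn1, Sesn1 and Lama5. A random replicate block within genotype (correlation 0.73) gave 905, 503 higher and 402 lower, and 909 under activin, and 766 of the 905 are among the 964. Under it Eomes and Apoe also passed (adjusted p = 0.0256 and 0.0496), and 8 named genes did not: Foxh1, Tgif1, Trim24, Fzd10, Esrrb, Fbxo15, Gnas and Bambi, with adjusted p from 0.0510 to 0.117. The deviations of libraries I and II from their group means correlated across genes at 0.225 between the genotypes under SB431542 and at 0.431 under activin. Other pseudocounts (900 and 943 genes), median-of-ratios scaling (918), no trend (956), summed repeats (962) and no filter (780, of which 478 are among the 964) stayed within 1.5 times. So did 2 alternatives chosen after seeing the data, protein-coding genes only (862) and leaving out the stretches of X and 6 and the Y-linked genes (880). In all 97 named genes the genotypes did not overlap, so leaving out a library could not change a sign. No named gene changed sign under any of the 20 alternatives, but 88 of 97 no longer passed without WT II. The interaction had 0 genes throughout, with 8 to 414 at an unadjusted p under 0.05. Except where stated, the cause was not tested.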
